A study of Mus musculus with 14 samples.

Results

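The genes of 9 m6A reader proteins, Ythdf1, Ythdf2, Ythdf3, Ythdc1, Ythdc2, Prrc2a, Fmr1, Fxr1 and Elavl1, were followed through every assay of a study of mouse muscle stem cells (MuSCs). The genes were chosen as known readers, and were matched by symbol to the gene identifiers of the input RNA and to the Entrez identifiers of the RNA immunoprecipitation (RIP) tables. All 9 were found among the 14837 genes of the input RNA and among the 4527 genes with Igf2bp3-RIP peaks. Of these, 7 were found among the 9416 genes of the m6A-RIP and 7 among the 3493 genes with Lin28a-RIP peaks.

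The study compared control MuSCs with Lin28a+ MuSCs, which the paper describes as sorted by flow cytometry from Lin28a-CreERT2; LSL-tdTomato mice, in which cells that have expressed the RNA-binding protein Lin28a are marked with a red fluorescent protein. The mark reports activity of the Lin28a-driven Cre when it was induced, and the control is labelled only by its genotype, Control. Both groups came from skeletal muscle and were grown on Matrigel in DMEM with fetal bovine serum. The 14 libraries comprised input RNA, m6A-RIP and Igf2bp3-RIP, each with 2 libraries per group, and 2 Lin28a-RIP libraries from Lin28a+ MuSCs alone. The ages of the mice and the origin of the replicates are not given in the labels, so the p-values measure the spread between these libraries, which may be technical.

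N6-methyladenosine (m6A) is a methyl mark placed on adenosines of messenger RNA by a nuclear writer complex, and reader proteins are the factors that bind marked RNA and decide its fate. YTH-domain proteins hold the methylated base directly in an aromatic pocket. Readers of other families, such as Fmr1 and Elavl1, bind RNA through other domains and have been reported to favour methylated transcripts. In muscle stem cells, whose exit from quiescence and differentiation need rapid turnover of transcripts, readers sit between the mark and RNA decay, translation and splicing. All values below concern the RNA of the reader genes, not the amount or the binding of their proteins.

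A stretch at the start of a peak is shown for Fmr1, because its first base is the first base of an Igf2bp3-RIP and of a Lin28a-RIP peak, as also for 2 Fxr1 peaks, and because the promoter table holds it. It lies near the 5′ end of Fmr1, at chrX:68678598-68678627 on the plus strand of GRCm38.p6, where the Igf2bp3-RIP peak is 249 bp long and the Lin28a-RIP peak 235 bp. It begins 62 bp inside the gene. The 30 bases were read from the RefSeq promoter table, 5′ to 3′, with the letters GGAG, a motif that the zinc knuckles of Lin28 proteins are known to bind, in capitals.
Fmr1: gGGAGcgtttcggtttcacttccggtgagg
GGAG was found once on this strand and its reverse complement was not found. The same letters were held on the sense strand by 22.5% of the 32851 windows of this length and offset in the promoter table, so the match is common and is only a description.

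Libraries summed to between 4842915 and 6220960 estimated counts for the input, 21350962 and 31830638 counts for the m6A-RIP, 9215355 and 34142094 for the Igf2bp3-RIP, and 33908110 and 36610494 for the Lin28a-RIP. Levels are given as CPM, counts scaled to a common library size and corrected by TMM factors, and a difference as a log2 fold change of Lin28a+ over control with its standard error (SE). A call means a Benjamini-Hochberg adjusted p under 0.05, over all features of that table, in edgeR's quasi-likelihood test. Replicates of the Igf2bp3-RIP stood far apart, where chi-square over its degrees of freedom was 99.8 for control and 99.5 for Lin28a+ pairs, against 6.15 and 6.03 in the m6A-RIP. The 7 muscle stem cell markers, among them Pax7, Myod1 and Cdh15, summed to between 8350 and 8610 CPM in control and between 8860 and 8940 CPM in Lin28a+ input libraries; Pax7 and Cdh15 rose, and Myf5, Vcam1 and Des fell. Markers of differentiating muscle summed to at most 1900 CPM in control and at least 4770 CPM in Lin28a+ libraries; of the 5, Myog, Ckm and Actc1 rose, and Mymk and Myh3 fell. Smooth muscle and pericyte markers summed to at most 5360 and at least 7480 CPM, nearly all of it Acta2, which rose, while Rgs5 fell from 2.39 and 2.07 CPM to 0.198 and 0.206 CPM and Myh11 was at or below 0.0798 CPM. Of the fibro-adipogenic markers Dcn was not in the table and Pdgfra was at or below 0.233 CPM, while Ly6a rose, and the list summed to at most 5.07 and at least 12.9 CPM. Of the endothelial markers Cdh5, Kdr and Tek were not in the table and Pecam1 was at or below 0.504 CPM, and of the blood markers Adgre1 was not in the table and the other 3 summed to at most 2.28 CPM. The part of these marker differences in the results on readers was not tested, and in bulk libraries fewer cells expressing a gene and less RNA per cell cannot be told apart.

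The RNA comparison asked whether reader genes are expressed differently in Lin28a+ MuSCs. Of the 9 readers, 6 passed the test, 2 higher and 4 lower, beside a background in which 56.8% of the 11317 genes tested were called, 28.1% higher and 28.7% lower. The groups did not overlap for 4 readers that were higher and 4 that were lower, where 43.5% and 40.8% of all genes were higher or lower without overlap. The share among readers is therefore near that of genes in general, and the median log2 fold change was -0.05 over the readers and 0.01 over all genes. The readers that fell were Ythdf3, Fmr1, Ythdc1 and Fxr1, and those that rose were Elavl1 and Prrc2a. DESeq2 called 2 of the 9, Ythdf3 and Elavl1, and called 3039 genes where edgeR called 6432.

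The cytoplasmic YTH proteins Ythdf1, Ythdf2 and Ythdf3 are close relatives that act on the decay and translation of methylated messenger RNA. Ythdf3 stood at 63.28 and 65.8 CPM in the control libraries and at 38.38 and 40.2 CPM in the Lin28a+ libraries. Both Lin28a+ libraries were below both control libraries, a change of -0.73 (SE 0.045, adjusted p = 8.46e-05 in edgeR), or 39.3 ± 1.28 against 64.5 ± 1.78 CPM (SD, n = 2). Ythdf1 stood at 75.06 and 75.67 CPM in control and at 77.75 and 85.73 CPM in Lin28a+ MuSCs, a difference of 0.10 (SE 0.06, adjusted p = 0.201 in edgeR). Ythdf2, the member best known for recruiting the CCR4-NOT deadenylase, stood at 50.96 and 53.68 CPM in control and at 52.36 and 49.84 CPM in Lin28a+ MuSCs. Its groups overlapped, with a difference of -0.05 (SE 0.081, adjusted p = 0.66 in edgeR). In edgeR, the 95% interval of the Ythdf3 change, -0.84 to -0.62, did not overlap that of Ythdf1, -0.05 to 0.25, or that of Ythdf2, -0.25 to 0.16. DESeq2 gave larger SEs, 0.18 for Ythdf3, 0.15 for Ythdf1 and 0.18 for Ythdf2, so the edgeR intervals may be too narrow. The differences between these paralogues were not tested as such, and reads that match more than 1 of them could have been split by the counting.

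Among the other YTH proteins, Ythdc1 is the nuclear reader that links m6A to splicing and export, and Ythdc2 is an RNA helicase best known from the germ line. Ythdc1 stood at 20.24 and 19.4 CPM in control and at 13.58 and 14.36 CPM in Lin28a+ MuSCs, a fall of 0.51 on the log2 scale (SE 0.076, adjusted p = 0.00215 in edgeR, but 0.23 in DESeq2). Ythdc2 had only 40 to 51 estimated counts per library, and its levels, at 7.359 and 8.246 CPM in control and at 9.251 and 8.409 CPM in Lin28a+ MuSCs, did not pass the test (0.16, SE 0.20, adjusted p = 0.537 in edgeR). A change of Ythdc2 between -0.34 and 0.66 lay within its 95% interval.

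Fmr1, lost in fragile X syndrome, and its relative Fxr1, an RNA-binding protein needed in muscle, are translational regulators. Fmr1 stood at 12.51 and 13.42 CPM in control and at 8.857 and 9.024 CPM in Lin28a+ MuSCs, a change of -0.55 (SE 0.11, adjusted p = 0.0084 in edgeR, 0.323 in DESeq2). The Fmr1 values rest on 44 to 83 estimated counts per library, and the call was lost without the second control library (adjusted p = 0.0575) or without 1 Lin28a+ library (adjusted p = 0.0522). Fxr1 stood at 66.41 and 68.23 CPM in control and at 53.34 and 49.02 CPM in Lin28a+ MuSCs, a change of -0.41 (SE 0.051, adjusted p = 0.0011 in edgeR, 0.056 in DESeq2). Both Lin28a+ libraries lay below both control libraries for each of these genes. Their relative Fxr2, from a list of other readers, went from 72.1 and 73.2 CPM to 94.1 and 92.1 CPM, a rise of 0.34 (SE 0.035, adjusted p = 0.00048 in edgeR).

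Prrc2a is a large intrinsically disordered reader, and Elavl1 (HuR) stabilises messenger RNA with AU-rich elements. Prrc2a stood at 270.2 and 276.3 CPM in control and at 307.4 and 319.5 CPM in Lin28a+ MuSCs, a rise of 14.7% (0.18, SE 0.028, adjusted p = 0.00246 in edgeR, 0.109 in DESeq2). Elavl1 stood at 83.52 and 90.7 CPM in control and at 113 and 113.2 CPM in Lin28a+ MuSCs, a rise of 0.36 (SE 0.04, adjusted p = 0.000655 in edgeR, 0.0326 in DESeq2). The groups overlapped for neither gene.

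**Figure D1:**
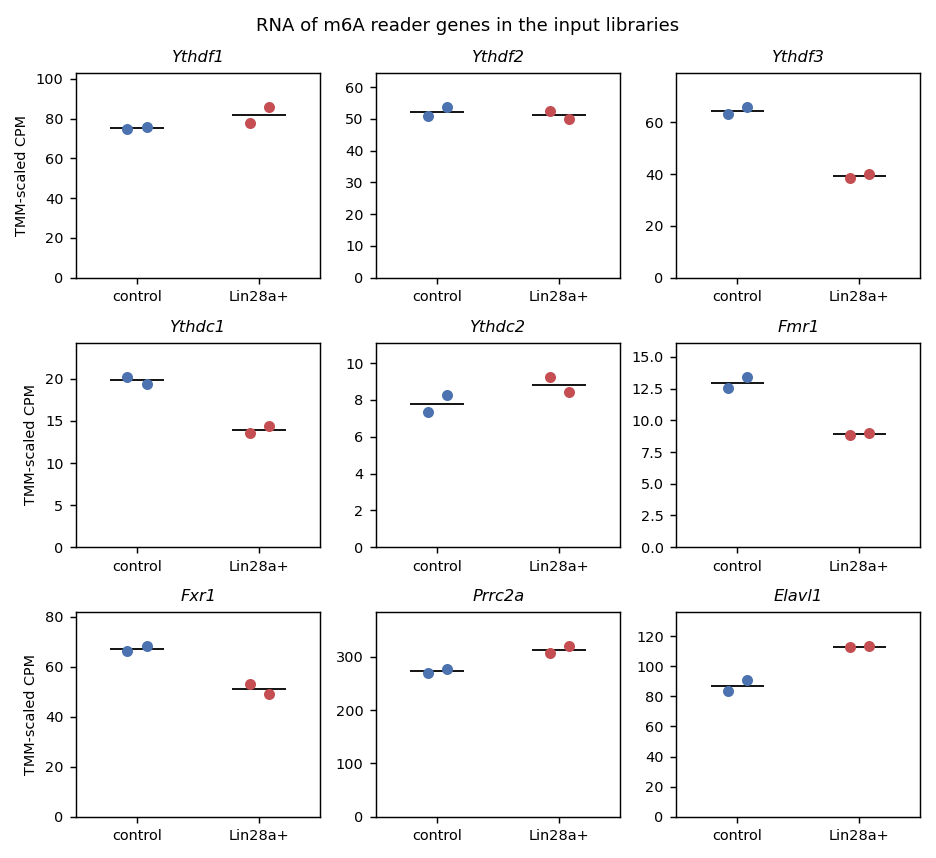
RNA level of each reader gene in TMM-scaled CPM (vertical axis, from 0) in control (blue) and Lin28a+ (red) input libraries; points are libraries and lines are means of 2. Ythdf3 fell from 64.5 to 39.3 CPM and Elavl1 rose from 87.1 to 113 CPM, while the Ythdf2 groups overlap.

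The rest of the m6A pathway was taken from 3 lists, in which genes also moved in both directions. Of 13 other readers tested, 7 rose and 4 fell, beside 28.1% and 28.7% of all genes, with a median of 0.08. Igf2bp3, the reader pulled down in the RIP, rose most, from 11.4 and 10.7 CPM to 35.6 and 34 CPM (1.65, SE 0.07, adjusted p = 2.92e-05 in edgeR). Eif3a, a translation initiation subunit, fell by 0.90 on the log2 scale, and the nuclear readers Rbmx and Hnrnpc rose by 0.79 and 0.44 on that scale. DESeq2 called 6 of this list and edgeR 11.

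Of 14 writers and erasers tested, 2 rose and 5 fell, so 7 were called, beside 56.8% of all genes, with a median of 0.04. Pcif1, which methylates the cap-adjacent adenosine, rose by 0.66 on the log2 scale. Zc3h13 and Rbm15, accessory subunits of the writer complex, had log2 fold changes of -0.64 and -0.46. The catalytic subunit Mettl3, at 4.05 and 4.2 CPM in control and at 5.31 and 5.74 CPM in Lin28a+ MuSCs, did not pass the test (adjusted p = 0.214 in edgeR), and the call on its partner Mettl14 (-0.42, adjusted p = 0.0394 in edgeR) was lost in DESeq2 (adjusted p = 0.463), with total counts (0.0555), with no filter (0.0578) and without the second control library (0.206) or either Lin28a+ library (0.153 and 0.0923).

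The effectors that readers recruit comprised deadenylases, decapping and decay enzymes, splicing and export factors and partners of Fmr1. Of 27 tested, 6 rose and 9 fell, so 15 were called, a share near the 56.8% of all genes, with a median of -0.04. The deadenylase Cnot6l fell by 0.87 on the log2 scale. Xrn1, the cytoplasmic 5′ to 3′ exonuclease, and Rida (Hrsp12), which links Ythdf2 to RNA cleavage, had changes of -0.56 and -0.78, and the deadenylase Pan2 had a change of 0.60. DESeq2 called 4 of this list and edgeR 15, and the calls on Xrn1, Rida and Pan2 were among those lost. Without the second control library or without 1 of the Lin28a+ libraries, 8 effectors were called in edgeR, and without the other Lin28a+ library 9. Over all genes, 5489, 5400 and 5473 were called without these libraries, against 6432 with all of them. The Rida call was also lost without the first control library (adjusted p = 0.0604), without the second (0.0638) and without 1 Lin28a+ library (0.173), and the Pan2 call without the second control library (0.0964) and without that Lin28a+ library (0.0863).

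The m6A-RIP comparison asked whether the share of these transcripts in the m6A-RIP counts differed between the groups. Counts were scaled within the assay, so a change in the total amount of m6A could not be seen. In the m6A-RIP, RNA fragments are pulled down with an antibody against the mark, and each row of the table is a stretch of a transcript whose position is not given. Fxr1 and Ythdc2 had no row. The other 7 readers had 25 rows, of which 18 were called, 8 higher and 10 lower, beside 61.8% of all rows, 30% higher and 31.8% lower. Summed per gene, 6 of 7 were called, 3 higher and 3 lower, beside 66.3% of all genes, 32.5% higher and 33.8% lower. The groups did not overlap for 4 readers that were higher and 3 that were lower, where 41.2% and 41.4% of all genes showed this.

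Of the 4 readers with lower RNA, the 3 with m6A-RIP rows also had lower m6A-RIP counts. Ythdf3 went from 182.3 and 190.4 CPM to 115.4 and 103.9 CPM, a change of -0.77 (SE 0.052, adjusted p = 6.55e-08 in edgeR). Ythdc1 went from 102.6 and 103.8 CPM to 71.49 and 65.45 CPM (-0.59, SE 0.054, adjusted p = 8.79e-07 in edgeR). Fmr1 went from 21.24 and 23.24 CPM to 15.13 and 12.86 CPM (-0.67, SE 0.12, adjusted p = 0.00041 in edgeR). The calls and directions of these 3 genes held in DESeq2, under each scaling and filter and without each library in turn.

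The rises were smaller and depended on the scaling. Prrc2a went from 1069 and 1048 CPM to 1185 and 1211 CPM (0.18, SE 0.035, adjusted p = 0.000719 in edgeR), and Ythdf1 from 199.5 and 205.8 CPM to 225 and 220.7 CPM (0.14, SE 0.041, adjusted p = 0.00995). Elavl1 went from 14.26 and 13.07 CPM to 15.61 and 19.53 CPM (0.36, SE 0.14, adjusted p = 0.034 in edgeR). With total counts as the only scaling, the median over all genes shifted by -0.10 and none of these 3 was called, with changes of 0.08, 0.04 and 0.26, while the 3 falls were still called. The Ythdf1 call was also lost without the first control library (adjusted p = 0.0887), and the Elavl1 call without the second control library (0.105) or 1 of the Lin28a+ libraries (0.318). Ythdf2 went from 198.8 and 204 CPM to 212 and 204.5 CPM and was not called (0.05 with TMM and -0.05 with total counts).

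With TMM scaling, the rows of a gene had differences of the same sign. All 7 Ythdc1 rows, on 4 annotated transcripts, were lower, between -0.69 and -0.39, and 6 of them were called. All 8 Prrc2a rows were higher with TMM, between 0.08 and 0.33, and 6 were called, but with total counts they lay between -0.07 and 0.17, with 2 below 0 and 1 called. The largest Ythdf3 row went from 138 and 146.6 CPM to 89.71 and 80.86 CPM (-0.74, adjusted p = 1.32e-07 in edgeR), and the other rows of the gene changed by -0.66 and -0.48, the last of these not called (adjusted p = 0.0614). Both Fmr1 rows were called lower (-0.67 and -0.50). With total counts, which moved the median of all rows by -0.15, 13 of the readers' rows were called, 1 higher and 12 lower, beside 3842 higher and 7638 lower of all 18881 rows. All rows of Ythdf3, Ythdc1 and Fmr1 were then called lower, and both Ythdf2 rows went from above to below 0.

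**Figure D2:**
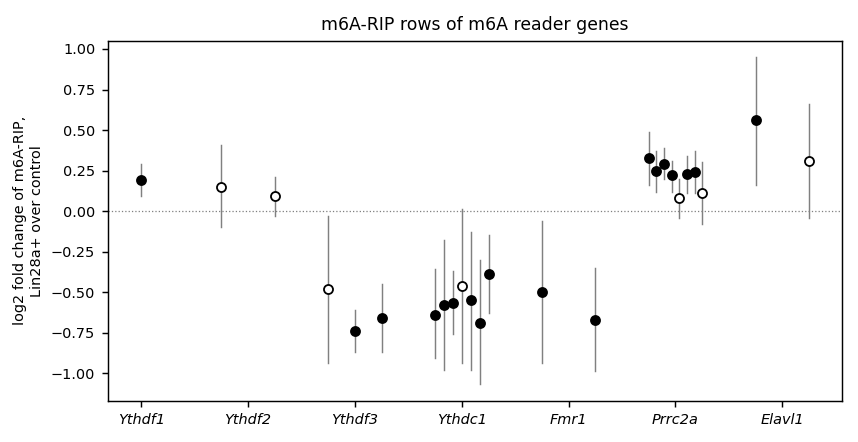
Log2 fold change, Lin28a+ over control, of each m6A-RIP row of 7 reader genes; bars are 95% intervals and filled points passed the test. All rows of Ythdf3, Ythdc1 and Fmr1 lie below 0 and all rows of Ythdf1, Ythdf2, Prrc2a and Elavl1 above it, between -0.74 and 0.56, with TMM scaling, where with total counts 2 Prrc2a rows and both Ythdf2 rows fall below 0.

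Relative to input, no difference was found in the m6A-RIP of the readers. In a model holding both assays, 0 of 7 readers were called by edgeR, 0 at an unadjusted p under 0.05 and 0 by DESeq2, beside 7.26% of 7408 genes called and 17.1% at the unadjusted p. The log2 differences lay between -0.11 for Fmr1 and 0.10 for Ythdf2. The 95% intervals were -0.26 to 0.20 for Ythdf3, -0.39 to 0.24 for Ythdc1, -0.55 to 0.33 for Fmr1, -0.10 to 0.10 for Prrc2a, -0.11 to 0.19 for Ythdf1, -0.09 to 0.29 for Ythdf2 and -0.28 to 0.30 for Elavl1. The narrowest interval was that of Prrc2a, and the widest that of Fmr1.

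The m6A-RIP level over input differed widely among the readers. In control MuSCs it was highest for Ythdc1, at 2.38 on the scale of log2(CPM + 1), the 85.2 percentile of 7943 genes whose median was 0.70. Prrc2a (2.01), Ythdf2 (1.98), Ythdf3 (1.57) and Ythdf1 (1.47) lay above that median and Fmr1 (0.79) close to it. Elavl1 was at -2.53, the 4.99 percentile, so the m6A-RIP held far less of it than the input did. In Lin28a+ MuSCs Ythdc1 was again the highest, at 2.16, and Elavl1 the lowest, at -2.68, and Ythdf2 (1.95) and Prrc2a (1.87) changed places. These values set the counts in m6A-RIP rows against whole-gene estimates, so they rank genes within an assay and are not a fraction of methylated molecules.

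The Igf2bp3-RIP comparison asked whether each transcript's share of the Igf2bp3-RIP counts differed between the groups. Counts were scaled within the assay, so a change in the total RNA bound by Igf2bp3 could not be seen. All 9 readers had peaks, 41 in all, of 200 to 2449 bp, and every one lay inside its gene. Fmr1 had 12 peaks, Prrc2a 10, Ythdf3 and Fxr1 5 each, Ythdf2 3, Ythdf1 and Ythdc2 2 each, and Ythdc1 and Elavl1 1 each. Per kb of peak, Prrc2a held 521 CPM in control, the 98.2 percentile of genes with peaks, and Fxr1 256 CPM, the 92.9 percentile. Elavl1 (178), Ythdf1 (128), Ythdf2 (127), Fmr1 (113), Ythdf3 (111) and Ythdc1 (86.7) followed, against a median of 64.9 CPM per kb. Ythdc2, at 15.4 CPM per kb, was at the 3.6 percentile.

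None of the 41 peaks was called, by edgeR or DESeq2 or at an unadjusted p under 0.05, beside 0.123% of all 19465 peaks called by edgeR and 5.22% at the unadjusted p. Per gene, 0 of 9 readers were called by edgeR, 0 at an unadjusted p under 0.05 and 0 by DESeq2, beside 0.287% of genes called and 8.44% at the unadjusted p. Fmr1 stood at 646.7 and 581.6 CPM in control and at 732.7 and 860.8 CPM in Lin28a+ MuSCs, a difference of 0.38 (SE 0.24, adjusted p = 0.769 in edgeR). Ythdf3 stood at 506.4 and 425.3 CPM in control and at 532.3 and 557.5 CPM in Lin28a+ MuSCs (0.23, SE 0.22, adjusted p = 0.868 in edgeR). For these genes both Lin28a+ libraries were above both control libraries, a pattern that 18.5% of all genes showed. Prrc2a stood at 1386 and 1915 CPM in control and at 1151 and 1496 CPM in Lin28a+ MuSCs, with overlapping groups (-0.32, SE 0.32, adjusted p = 0.869 in edgeR).

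The peaks of a gene share its transcript and are not independent. All 12 Fmr1 peaks had a positive difference, between 0.19 and 0.46, and 7 of them had groups that did not overlap, where 15% of all peaks were higher without overlap. All 5 Ythdf3 peaks were positive, between 0.15 and 0.35, and 2 did not overlap. All 10 Prrc2a peaks were negative, between -0.41 and -0.20, and 6 did not overlap, where 16.8% of all peaks were lower without overlap. Of the other 6 readers, Ythdf2 stood at 141.1 and 134.7 CPM in control and at 127.5 and 127.6 CPM in Lin28a+ MuSCs, lower without overlap, as were 19.7% of all genes (-0.11, SE 0.19, adjusted p = 0.929 in edgeR). The groups of the remaining 5 overlapped. Fxr1, for example, stood at 467 and 190.4 CPM in the control libraries and at 390.5 and 193.8 CPM in the Lin28a+ libraries, and its 95% interval reached from -1.40 to 1.06. The intervals of Ythdc1 and Ythdc2 were also wide, at -1.14 to 0.80 and -0.93 to 1.40.

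**Figure D3:**
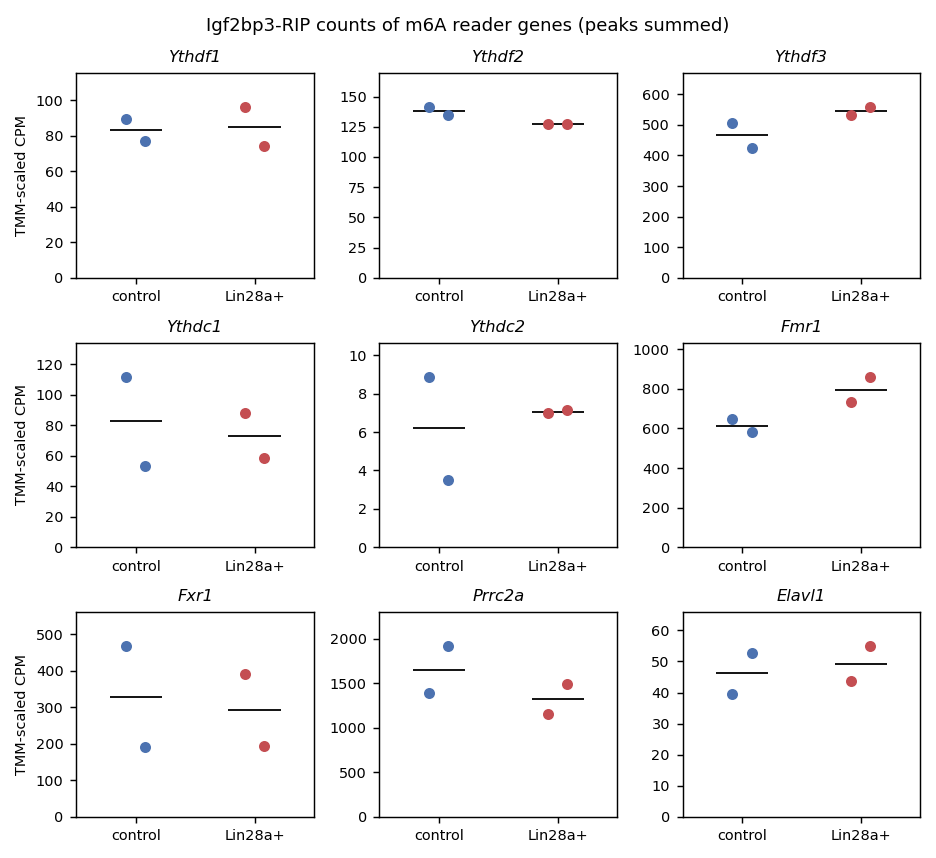
Igf2bp3-RIP counts of each reader gene, its peaks summed, in TMM-scaled CPM (vertical axis, from 0), for control (blue) and Lin28a+ (red) libraries; points are libraries and lines are means of 2. Fmr1 and Ythdf3 have both Lin28a+ points above both control points, and Fxr1 and Ythdc1 spread widely within each group.

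Relative to input, the Igf2bp3-RIP differences of Fmr1 and Ythdf3 were positive and that of Prrc2a negative, opposite to their RNA changes. None of the 9 readers was called by edgeR or DESeq2, beside 1.35% of 3710 genes called by edgeR. These fits hold no replicate block, and a fit with the block called some readers, as given with the processing below. At an unadjusted p under 0.05 there were 3 of 9, beside 25% of all genes. Ythdf3 had a difference of 0.73 (SE 0.18, 95% interval 0.30 to 1.15, adjusted p = 0.0786 in edgeR). Fmr1 had 0.69 (SE 0.20, 0.22 to 1.17, adjusted p = 0.104 in edgeR), and Prrc2a -0.73 (SE 0.29, -1.42 to -0.05, adjusted p = 0.178 in edgeR). The RNA change enters each of these differences. With 1 library left out at a time, the difference ranged from 0.61 to 0.85 for Ythdf3, 0.6 to 0.82 for Fmr1 and -0.95 to -0.48 for Prrc2a. The calls also depended on the library left out, as given with the processing below. Elavl1 (-0.51), Ythdf1 (-0.30), Ythdf2 (-0.30), Ythdc2 (-0.13), Ythdc1 (0.12) and Fxr1 (0.01) had intervals that held 0. With 1 library left out, Elavl1 ranged from -0.7 to -0.27 and Ythdf1 from -0.48 to -0.1.

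**Figure D4:**
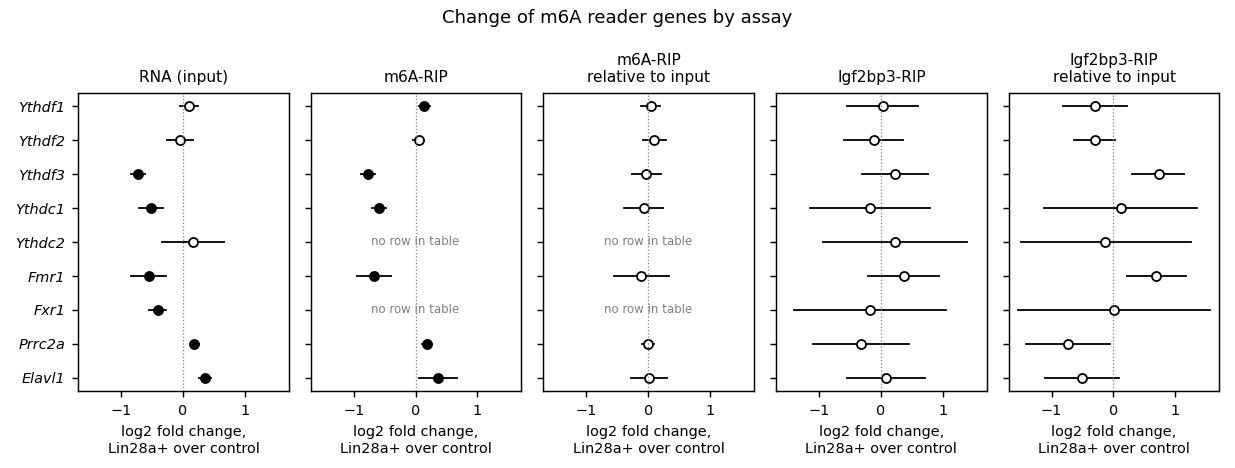
Log2 fold change, Lin28a+ over control (horizontal axis), of each reader gene in RNA, m6A-RIP, m6A-RIP relative to input, Igf2bp3-RIP and Igf2bp3-RIP relative to input; bars are 95% intervals and filled points passed the test. Ythdf3, Ythdc1 and Fmr1 are lower in both RNA and m6A-RIP, Fxr1 is lower in RNA and has no m6A-RIP row, m6A-RIP relative to input lies between -0.11 and 0.10, and the Igf2bp3-RIP intervals are wide.

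The level over input ordered the readers differently in the Igf2bp3-RIP than in the m6A-RIP. Fmr1 was at 5.46 in control and 6.33 in Lin28a+ MuSCs on the scale of log2(CPM + 1), the 96.4 and 97.3 percentiles of 3922 genes. Ythdf3 was at 2.83 and 3.77, and Prrc2a at 2.57 and 2.08, above the medians of 1.46 and 1.73 over all genes. Elavl1, low in the m6A-RIP, was low here too, at -0.92 and -1.18. Its 1 peak, of 256 bp, was set against the whole gene, and per kb of peak Elavl1 lay at the 87.2 percentile in control and the 89.4 in Lin28a+ MuSCs. Fmr1, near the median of the m6A-RIP, was the highest reader in the Igf2bp3-RIP. Level over input also follows the number and width of peaks, and Fmr1 had 12 peaks of 5374 bp in all and low input counts. Per kb of peak it lay at the 74.8 percentile in control and the 84 in Lin28a+ MuSCs.

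Lin28a-RIP was made in Lin28a+ MuSCs alone, so its values have no control and no test. Of the 9 readers, 7 had Lin28a-RIP peaks, 58 in all, and Ythdf1 and Elavl1 had none. Prrc2a had 15 peaks with 1922 and 1954 CPM in the libraries, without TMM factors. Ythdf3 had 342.7 and 348.7 CPM in 4 peaks, Fxr1 297.8 and 324.4 CPM in 7, Fmr1 257.7 and 256.5 CPM in 7, Ythdf2 193.3 and 188.7 CPM in 3, Ythdc2 136.1 and 128.3 CPM in 18 and Ythdc1 115.3 and 112.8 CPM in 4. Per kb of peak the order was Prrc2a (263 CPM), Fxr1 (170), Ythdf2 (91.8), Ythdf3 (84.4), Fmr1 (67.2), Ythdc1 (51.5) and Ythdc2 (22.8), against a median of 47.3 CPM per kb over all genes with peaks. Over input, Fmr1 was again the highest, at 4.69 on the scale of log2(CPM + 1), a value that also follows the width of its peaks and its low input counts.

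The positions of the Igf2bp3-RIP and Lin28a-RIP peaks of the readers were compared within each gene. Of the 41 Igf2bp3-RIP peaks, 31 (75.6%) overlapped a Lin28a-RIP peak by at least 1 bp, and in the other direction 29 of 58 Lin28a-RIP peaks (50%) met one of Igf2bp3. When each peak had to cover at least 50% of the other, the shares were 58.5% and 41.4%. Over all genes, 60.2% of 19465 Igf2bp3-RIP and 52.3% of 21616 Lin28a-RIP peaks overlapped by at least 1 bp, and 47.7% and 43% by the stricter rule. In genes with peaks in both tables, 77.1% of 15205 and 57.4% of 19685 peaks overlapped by at least 1 bp, so the readers' shares are near those of genes in general. Of the Igf2bp3-RIP peaks, 20 began within 50 bp of a Lin28a-RIP peak, and 3 at the same base. All 7 Lin28a-RIP peaks of Fmr1 overlapped 7 of its 12 Igf2bp3-RIP peaks. One Fxr1 peak of 341 bp, at chr3:34057867-34058207, had the same first and last base in both. Ythdc2 had 18 Lin28a-RIP peaks but 2 Igf2bp3-RIP peaks, both of which were shared.

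The share of a gene's counts in its largest peak differed between readers, and is given as the range over single libraries. In Ythdf3 (gene at chr3:16183148-16217037) the Igf2bp3-RIP peak at chr3:16203639-16205268 held 52.9% to 60.8% of its Igf2bp3-RIP counts over 4 libraries, and the Lin28a-RIP peak at chr3:16203642-16205288 held 58.8% and 59.1% of its Lin28a-RIP counts. In Fmr1 (chrX:68678536-68717963) the peak at the 3′ end, 2449 bp long and ending 129 bp before the end of the gene, held 31.7% to 37.8% of the Igf2bp3-RIP counts, and its Lin28a-RIP counterpart 45.5% and 48.7%. The peak at the 5′ end, whose first bases are printed above, held 2.12% to 6.98% and, in the Lin28a-RIP, 2.99% and 3.43%. In Prrc2a (chr17:35149076-35165321) the largest of the 10 Igf2bp3-RIP peaks held 16% to 21.2% of the counts, and the 5 Fxr1 peaks held between 13.3% and 25.4% each.

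**Figure D5:**
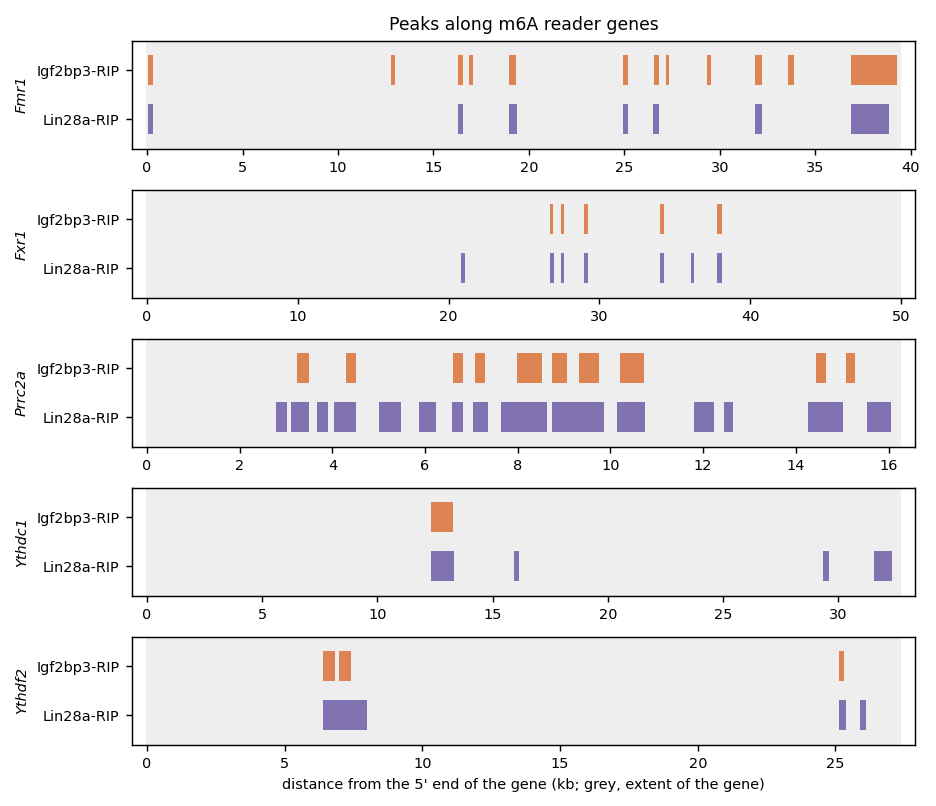
Igf2bp3-RIP (orange) and Lin28a-RIP (purple) peaks drawn to scale against distance from the 5′ end of the gene in kb, for 5 reader genes with peaks in both tables and a strand in the promoter table; grey marks the extent of the gene. Fmr1 has 7 Lin28a-RIP peaks under 7 of its 12 Igf2bp3-RIP peaks, and Ythdc1 has 4 Lin28a-RIP peaks and 1 Igf2bp3-RIP peak.

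Ythdf3 had the largest RNA change of the readers present in the input, m6A-RIP and Igf2bp3-RIP tables. Over the 12 libraries of these assays, with log2(CPM + 1) centred within each assay, the genes with the most similar pattern among 3253 were Cep170 at a Euclidean distance of 0.168, Naa15 at 0.177 and Ube3a at 0.221, where the median gene lay at 1.08. Their RNA changes were -0.67, -0.64 and -0.70, their m6A-RIP changes -0.71, -0.77 and -0.86, and their Igf2bp3-RIP differences 0.14, 0.14 and 0.20. The measure uses the same libraries as the tests, so it describes likeness and is not a test of it.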

How the data were processed

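The authors deposited estimated counts per gene for the input, which need not be whole and were rounded before testing, and whole-number counts per peak or row for each RIP. Per the labels and the methods, reads were aligned with HISAT2 2.0.4, and FastQC, MACS2 1.4.3 and DESeq2 1.42.0 were named, with the builds GRCh38 and mm10. Peak positions were read as mm10 (GRCm38), since all genes are of mouse. The counting program, peak threshold and pooling for peaks are not given in the sources used here. How the input estimates were made bears on their counting noise and is not given either. The Lin28a+ columns of the input table are named as m6A-RIP libraries and were taken as input because of the table that holds them, on which every RNA and relative-to-input value rests. In the m6A-RIP table both Lin28a+ columns have the same name. Neither pair carries a usable replicate number.

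Tests used R 4.3.3 and edgeR 4.0.16 (filterByExpr, TMM, quasi-likelihood), over all features of a table, with RIP relative to input as an interaction term. SEs and 95% intervals follow from edgeR's p-value. For the RNA of the readers these SEs were smaller than those of DESeq2, as 0.11 against 0.39 for Fmr1, and may understate the uncertainty. Alternatives were DESeq2, median-ratio size factors, total counts, no filter, at least 10 counts in every library, each library left out and a replicate block. Symbols were matched for 99.96% or more of rows, and 7 of the readers were in the RefSeq promoter table. On simulated counts with planted changes, the fits recovered most of them in the RNA and m6A-RIP comparisons, with somewhat more false calls than the threshold allows in most of these, and almost none in the Igf2bp3-RIP comparisons, so an absent call there says little. Named genes were all readers, at most 4 called genes per list by size of RNA change, and the 3 genes most like Ythdf3; Mettl3, Fxr2 and the marker genes were named after their values were seen. The readers and lists were chosen with earlier results of these data known. Intervals cover the libraries at hand only. Lin28a was not analysed here.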

Additional observations from a re-analysis of the deposited data

How the results depend on the processing

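In RNA, DESeq2 called 2 readers in place of 6, 6 other readers in place of 11 and 4 effectors in place of 15, and 3039 genes in place of 6432. Leaving out 1 library left 5 to 6 readers and 8 to 11 effectors called. Applying these settings to the lists was chosen after seeing the data. With total counts, 3 in place of 6 readers were called in the m6A-RIP, Ythdf2 went to -0.05, and the split of calls over all features went from 5665 higher and 6005 lower to 3842 and 7638 for rows and from 3060 and 3179 to 2395 and 3766 for genes. For m6A-RIP relative to input, DESeq2 called 325 genes in place of 538 and leaving out 1 library 297 to 604, while Prrc2a went from near 0 to 0.01 with DESeq2, with median-ratio factors and with the stricter filter, and Elavl1 to -0.01 with no filter. Without 1 library the readers in this comparison ranged over 0 as well: Prrc2a from -0.03 to 0.02, Elavl1 from -0.17 to 0.15, Fmr1 from -0.23 to 0.01, Ythdf3 from -0.11 to 0.05 and Ythdf1 from -0.03 to 0.11. In the Igf2bp3-RIP, leaving out 1 library gave Fxr1 between -0.75 and 0.62, Elavl1 -0.1 and 0.31, Ythdc1 -0.61 and 0.45, Ythdf1 -0.15 and 0.25, and Ythdc2 -0.33 and 1.01, while Prrc2a stayed between -0.53 and -0.07 and Ythdf3 between 0.11 and 0.36; relative to input, Ythdc2 lay between -0.72 and 0.61, Fxr1 -0.57 and 0.79, and Ythdc1 -0.32 and 0.73, with 0 to 2 readers called. Over all features, edgeR called 24 Igf2bp3-RIP peaks, DESeq2 263, the stricter filter 0 and leave-one-out 108 to 193. Per gene it called 13, DESeq2 115, total counts 7 and leave-one-out 39 to 73. Relative to input it called 50 (18 higher, 32 lower), total counts 114 (83 higher, 31 lower, median shift 0.13) and leave-one-out 0 to 617.

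The Igf2bp3-RIP replicates share only a number, so the values of the replicate block are given here alone. The difference between numbers 2 and 1 in control correlated with that in Lin28a+ MuSCs (r = 0.703 over 19465 peaks, a description). With the block, 1988 peaks, 374 genes and, relative to input, 1330 genes (35.8%) were called. No reader was called per peak or per gene, and relative to input 5 readers were: Ythdf3 (0.73, adjusted p = 0.011 in edgeR), Fmr1 (0.69, 0.0411), Prrc2a (-0.73, 0.0035), Elavl1 (-0.5, 0.00939) and Ythdf2 (-0.3, 0.0457), while Ythdc2 went to 0.01. No paired fit of the input or m6A-RIP was possible because their Lin28a+ columns carry no usable number.

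A pseudocount of 0.1 CPM moved the level over input beyond the replicate SD for Ythdc1 in the control m6A-RIP (2.43), Fmr1 in the Lin28a+ Igf2bp3-RIP (6.47), and Ythdf3 (3.13), Ythdc1 (3.01), Ythdc2 (3.88) and Fmr1 (4.82) in the Lin28a-RIP. For all these changes the cause was not tested. Counts under 100 per library, as for Fmr1 and Ythdc2 in the input, limit what could be detected, and so do 2 libraries per group throughout.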

Other observations

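Igf2bp3 itself, the reader pulled down in the RIP, had levels unlike those of the 9 readers. Its m6A-RIP stood at 5370 and 5750 CPM in control and at 6750 and 7280 CPM in Lin28a+ MuSCs, against 11.4 and 10.7 CPM and 35.6 and 34 CPM in the input. The positions of m6A-RIP rows are not given, and whether counts this far above the input come from Igf2bp3 messenger RNA was not tested. The m6A-RIP differences below rest on these counts. The m6A-RIP rise of 0.34 (adjusted p = 1.33e-05 in edgeR) was smaller than the RNA rise of 1.65, and relative to input the difference was -1.31 (SE 0.14, adjusted p = 0.000186 in edgeR), the only call relative to input in the 3 lists of the m6A pathway. In the Igf2bp3-RIP its counts went from 14.9 and 14 CPM to 41.1 and 40.3 CPM (1.5, SE 0.24, adjusted p = 0.101 in edgeR).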
